A study of Rattus norvegicus with 24 samples.

Results

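The complement genes on the array were examined: the 3 chains of C1q (*C1qa*, *C1qb* and *C1qc*), *C2*, *C3*, both C4 genes (*C4-1* and *C4-2*) and factor B (*Cfb*). They were chosen by name. A probe was included when its gene name in the scanner files, or its symbol in the study's list of MHC probes, was one of these or an older synonym (*C1qg* for *C1qc*, *Bf* for *Cfb*). The *C4-1* probe is named *C4a* in the files and was included by its symbol in the study's list. All 8 were found, each with 1 probe, among the 7263 gene names and 8453 probes of the array.

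Paw skin explants of 12 male BN rats aged 15 weeks were compared. The control explant of each rat was cultured for 3 days with syngeneic BN lymphocytes, and the other with allogeneic PVG lymphocytes. The lymphocytes came from a 7-day mixed lymphocyte reaction (MLR) in which irradiated BN splenocytes stimulated PVG splenocytes or, for the controls, BN splenocytes. The assay models a graft versus host reaction in culture and holds the skin and the added lymphocytes but no circulation. Both groups received lymphocytes, and the RNA of an explant comes from the skin and from lymphocytes that stayed with it after washing. In such RNA, fewer cells of a type and less RNA per cell cannot be told apart.

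Complement is a cascade of plasma and tissue proteins that tags targets and lyses membranes. The classical pathway starts when C1q, carried with the proteases C1r and C1s, binds antibody or other ligands. C1s then cleaves C4 and C2, whose fragments form a C3-cleaving enzyme, and factor B has the role of C2 in the alternative pathway. The liver makes most of the circulating proteins, but macrophages, fibroblasts and keratinocytes of the skin also express several of these genes. C1q is mainly a product of macrophages and dendritic cells, and the genes for C2, factor B and C4 lie together in the class III region of the MHC and are known to respond to IFN-γ.

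The 60-base probes of the 4 members on which the results below turn are shown in full, because they define what was measured. On rat build rn3, which the file headers name, the *C2* probe lies on chromosome 20 at chr20:4071731-4071790 and the *C4-2* probe at chr20:4315670-4315729. The *C4-1* probe is listed from 4117005 to 4117983 of the same chromosome, a span of 979 bases for 60 bases of probe. The *C1qa* probe lies on chromosome 5, with its positions listed in descending order from 155672676 to 155672617. Each probe is written from 5′ to 3′ in lower case, and no stretch is singled out. Each has at least 1 reading frame without a stop codon.
C1qa probe: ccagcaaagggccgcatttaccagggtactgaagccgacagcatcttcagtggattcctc
C2 probe: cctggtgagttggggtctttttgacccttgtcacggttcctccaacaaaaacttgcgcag
C4-1 probe: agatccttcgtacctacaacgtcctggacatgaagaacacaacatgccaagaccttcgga
C4-2 probe: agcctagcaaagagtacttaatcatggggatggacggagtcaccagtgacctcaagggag
The files list transcripts of both C4 genes for each of the C4 probes, so neither probe can be assigned to a single C4 gene, and each is called by its name in the study's list.

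The 24 two-color arrays lay on 3 slides with 4 rats each, and each array held both samples of a rat. Between 74.8% and 99.9% of probe spots were well above background, and all 8 complement probes were so in both samples on all 24 arrays. The median intensity per array ranged from 135 to 6668 in Cy3 and from 269 to 25642 in Cy5. The brightest array was the array of rat 10 with the allogeneic sample in Cy5, and the 2 arrays of this rat correlated least (r = 0.13 over probes). Rat 8 stood apart, with a correlation of 0.22 to the mean of the other rats, against 0.53 to 0.83 for the rest. The keratinocyte markers *Perp* and *Trp63* were well above background on all 24 arrays, and the other keratinocyte markers looked for had no probe.

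Log2-fold changes are given as allogeneic over syngeneic by the dye labels, as the mean of 12 rats with the standard error of the limma fit. These signs are opposite to those in the study's tables: read with the study's sign, a negative value here is an up-regulation. The study's quantitative PCR, which does not use the array dyes, was run on part of these sample pairs. It found the direction of the study's arrays for every gene tested except *RT1-CE10*. With allogeneic lymphocytes against syngeneic ones, *Aif1*, *Ubd* and *Psmb8* were among the genes it found up-regulated. By the dye labels their values here are -1.27, -1.43 and -0.42, opposite to the PCR, so the direction by the labels is in doubt. Which sign is right was not tested. Higher and lower below refer to the explant that the labels call allogeneic, and every such direction would be reversed with the sign turned. p-values were adjusted over all 8453 probes by the Benjamini-Hochberg method, and an adjusted p under 0.05 is called significant. Precision is set by the 12 rats and their 24 arrays.

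Of the 8 complement probes, counted here with both C4 probes, 4 were significant, 3 of them higher (*C1qa*, *C1qc* and *C4-2*) and 1 lower (*C2*) in the sample labeled as allogeneic. Over all probes 17.3% were significant, 8.78% higher and 8.48% lower. The median log2-fold change was 0.20 for the complement probes and 0.01 for all probes. None of the 8 values reached a 2-fold change, whereas the study marks *C2* as changed at least 2-fold in its rat arrays. The reason for this difference in size was not tested. The SD between rats was 0.21 (*C1qa*) to 0.53 (*C3*), against a median SD of 0.13 over all probes, which include dim ones. Among all probes these 2 values lay at percentiles 68 and 93.

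**Figure D1:**
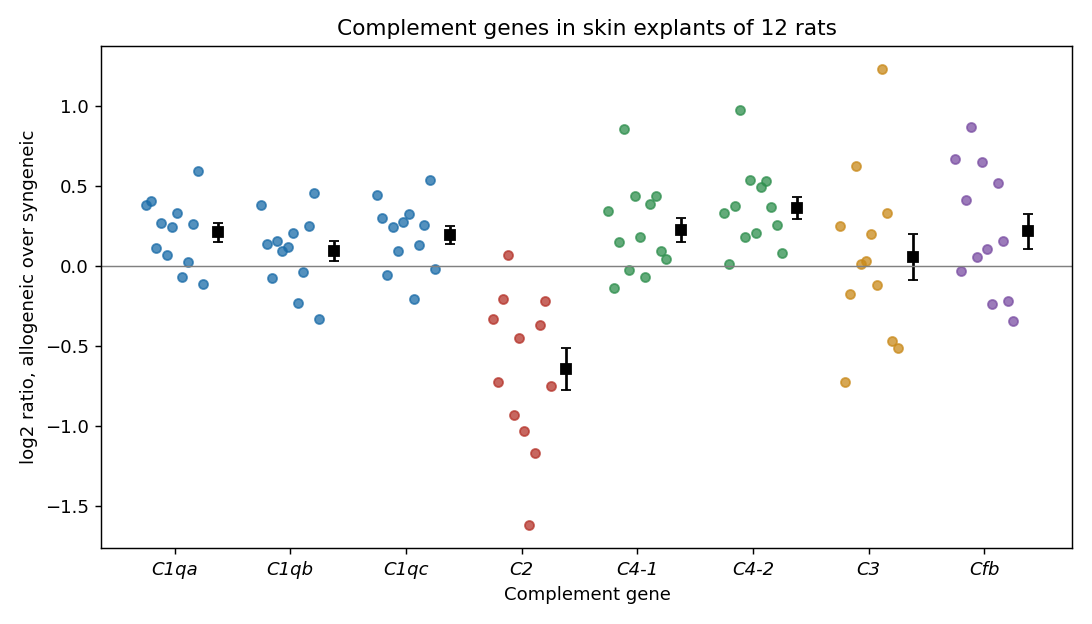
Log2 ratio of allogeneic over syngeneic explants by the dye labels (y axis) for the 8 complement genes (x axis). Colored points are the 12 rats in order of their number, and black squares are the mean with its standard error. *C2* lies below 0 in 11 rats, *C4-2* lies above 0 in all 12, and *C3* ranges from -0.72 to 1.23.

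*C2*, the protease precursor of the classical pathway, had a negative mean by the dye labels, and was the only significant member with that sign. With the sign turned, as in the study's tables, it would be the only significant member that is higher. Its log2 ratio was -1.62 in the lowest rat, -0.58 at the median and 0.07 in the highest. Rat 8 was lowest, and rat 4 was the only rat above 0. The mean was -0.64 ± 0.13, which by the dye labels is 1.56-fold less signal with allogeneic lymphocytes, and 1.56-fold more with the sign turned (limma, adjusted p = 0.00478, n = 12). In 7.9% of all probes the ratio was below 0 in at least 11 rats. The log2 intensity of *C2* was 8.81, 10.96 and 11.53 (lowest, median, highest) in the allogeneic samples and 9.19, 11.66 and 12.68 in the syngeneic ones, so the 2 groups overlapped when rats were not matched.

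*C2* was lower on every slide, by a log2 ratio of -0.30 on the first, -1.01 on the second and -0.63 on the third. The dye mattered for its size: the mean was -0.87 where the allogeneic sample carried Cy5 and -0.42 where it carried Cy3. The ratio was higher with Cy3 in all 12 rats, by 0.25 to 0.84. By the dye labels both orientations gave a significant negative mean on their own (limma, adjusted p = 0.000425 and 0.0323).

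The C4 protein supplies the part of the C3-cleaving enzyme that binds covalently to a target. Both of its probes had positive means, and the *C4-2* probe was significant. Its log2 ratio was 0.02 in the lowest rat, 0.35 at the median and 0.98 in the highest, and it was above 0 in all 12 rats, which held for 2.64% of all probes. The mean was 0.36 ± 0.07, or 1.29-fold (limma, adjusted p = 0.00357, n = 12). Its slide means were 0.43, 0.36 and 0.31. Its log2 intensity was 10.63 to 12.28 (median 11.34) in the allogeneic and 10.38 to 12.10 (median 11.12) in the syngeneic samples, which overlap.

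The *C4-1* probe gave -0.14 in the lowest rat, 0.17 at the median and 0.86 in the highest, with 9 of 12 rats above 0. Its mean of 0.23 ± 0.08 did not pass the threshold (limma, adjusted p = 0.0631, n = 12), and did so without rat 2 (adjusted p = 0.0425) or rat 8 (0.0311). As for *C2*, the dye moved it. The mean was 0.03 with the allogeneic sample in Cy5 (adjusted p = 0.815) and 0.42 with it in Cy3 (adjusted p = 0.00128), and the ratio was higher with Cy3 in all 12 rats. For *C4-2* the 2 orientations gave 0.34 and 0.38. In rat 4 both C4 probes had their highest ratio, and in rat 2 both had their lowest.

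**Figure D2:**
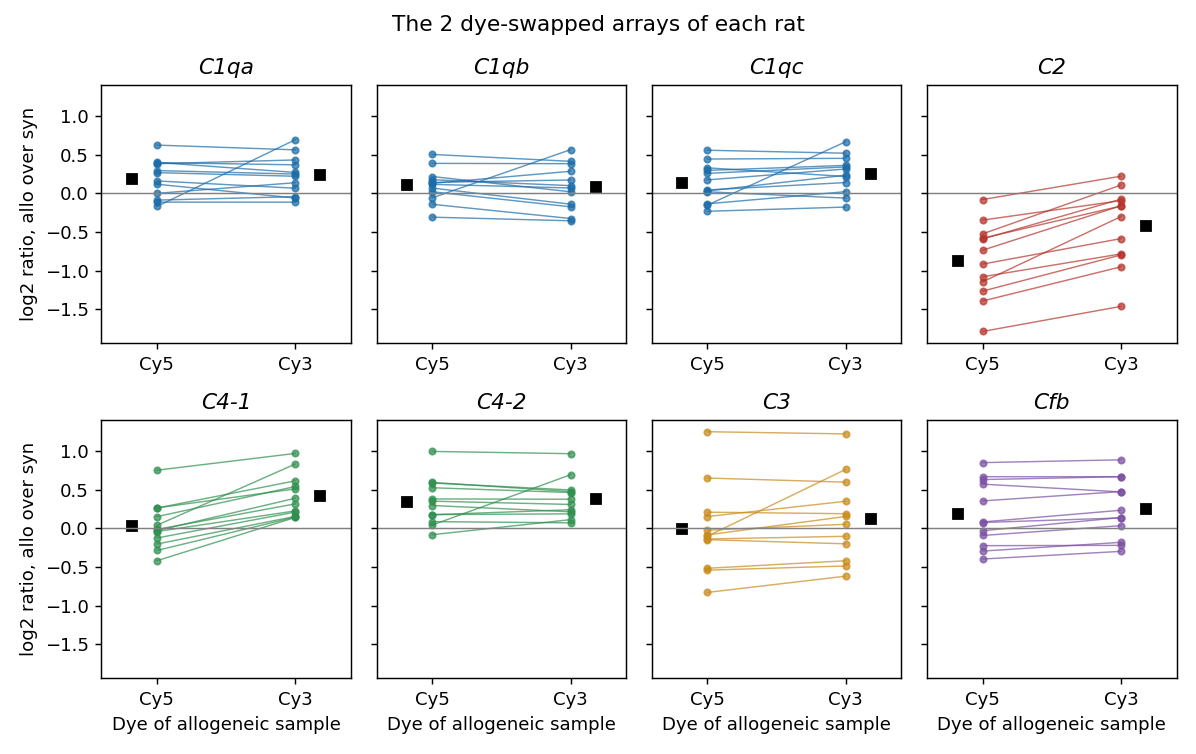
Log2 ratio of allogeneic over syngeneic explants (y axis) on the 2 arrays of each rat, with the allogeneic sample in Cy5 (left) or in Cy3 (right), in a panel for each complement gene. Lines join the arrays of a rat and black squares are the means over 12 rats. The lines rise for *C2* and *C4-1* in all 12 rats, while 4 of 12 rise for *C4-2*.

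The 3 genes of C1q encode the A, B and C chains, which assemble in equal numbers into one protein. Their mean ratios were between 0.09 and 0.21. For *C1qa* the log2 ratio was -0.11 in the lowest rat, 0.25 at the median and 0.59 in the highest, with 10 of 12 rats above 0. Its mean was 0.21 ± 0.06, or 1.16-fold (limma, adjusted p = 0.0235, n = 12). It missed the threshold without rat 1 (adjusted p = 0.0511), without rat 2 (0.0516) and with median centring in place of loess (0.149). *C1qc* ranged from -0.20 to 0.54 with a median of 0.25, and 9 of 12 rats were above 0. Its mean was 0.19 ± 0.06 (adjusted p = 0.039), and it lost significance when any of 9 rats was left out and under 8 other settings.

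*C1qb* ranged from -0.33 to 0.46 with a median of 0.13, and 8 of 12 rats were above 0. Its mean of 0.09 ± 0.06 did not pass the threshold (limma, adjusted p = 0.357, n = 12). Rat 11 had the highest ratio of all 3 C1q genes. Rat 12 was lowest for *C1qa* and *C1qb*, and rat 8 for *C1qc*. The intensities of the 2 groups overlapped for each gene: the median log2 intensity was 12.64 and 12.33 for *C1qa*, 12.23 and 12.12 for *C1qb*, and 12.01 and 11.73 for *C1qc* (allogeneic and syngeneic).

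Factor B is the protease precursor of the alternative pathway. Its log2 ratio was -0.35 in the lowest rat, 0.13 at the median and 0.87 in the highest, and 8 of 12 rats were above 0. Its mean was 0.22 ± 0.11 (limma, adjusted p = 0.203, n = 12). The slides differed for this gene, with a mean of 0.48 on the first, 0.14 on the second and 0.03 on the third. C3, on which all pathways converge, varied most between rats. Its log2 ratio was -0.72 in the lowest rat, 0.02 at the median and 1.23 in the highest, with 7 rats above 0 and 5 below. Its mean was 0.06 ± 0.14 (limma, adjusted p = 0.831, n = 12). The 95% interval, from the ordinary SD of the 12 rats and not from limma, was -0.28 to 0.40.

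The members were then compared with each other within rats, by an exact permutation of the signs of the 12 differences (two-sided, 28 pairs, Benjamini-Hochberg over the pairs). The members differed in 10 of 28 pairs, and 7 of these were *C2* against each of the other 7. The difference of *C2* was largest from *C4-2* (-1.01 ± 0.14, lower in 12 of 12 rats, exact permutation, adjusted p = 0.00273). It was smallest from *C3* (-0.70 ± 0.21, lower in 10 of 12 rats, exact permutation, adjusted p = 0.0122). From factor B, its counterpart in the alternative pathway and its neighbor on the chromosome, *C2* differed by -0.86 ± 0.13 and was lower in 11 of 12 rats (exact permutation, adjusted p = 0.00391).

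The other 3 differing pairs were of small size. *C1qb* lay below *C1qa* by 0.12 ± 0.03 in 10 of 12 rats (exact permutation, adjusted p = 0.0103) and below *C1qc* by 0.10 ± 0.03 in 11 of 12 rats (exact permutation, adjusted p = 0.00391). With the allogeneic sample in Cy5 and in Cy3, *C1qb* minus *C1qc* was -0.03 and -0.17, and *C1qa* minus *C1qb* was 0.08 and 0.15. *C4-1* minus *C4-2* was -0.14 ± 0.05 and negative in 10 of 12 rats (exact permutation, adjusted p = 0.0137). This difference was -0.31 with the allogeneic sample in Cy5 and 0.04 with it in Cy3, and with the processed signals of the scanner software it was -0.09 (adjusted p = 0.158). *C1qa* and *C1qc* differed by 0.02, with a 95% interval of -0.04 to 0.07. *C4-2* and *C3* differed by 0.31, with a 95% interval of 0.04 to 0.57 (exact permutation, adjusted p = 0.0706).

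Across rats, the ratios of the C1q genes varied together. Pearson's r over 12 rats was 0.92 for *C1qa* with *C1qb* (rho = 0.89, adjusted permutation p = 0.00056), 0.91 for *C1qa* with *C1qc* (rho = 0.89, adjusted permutation p = 0.00084) and 0.92 for *C1qb* with *C1qc* (rho = 0.90, adjusted permutation p = 0.00084). The adjusted permutation p of all 3 rho values was 0.0028, over 28 pairs. Without the 2 rats farthest from the median of the first gene, r was 0.85, 0.89 and 0.93, and after subtraction of the slide means it was 0.92, 0.93 and 0.93. A slide holds 4 rats, too few for a value of its own.

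The ratios of 2 genes of a rat share their arrays. When the genes of a pair were taken from different arrays of the same rat, a comparison added after the values were seen, r of the C1q pairs was 0.44 to 0.61. Without rat 10, whose C1q ratios differed by 0.62 to 0.86 between its arrays, it was 0.86 to 0.92.

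A second set of correlated ratios joined the C4 probes with factor B and C3. *C4-1* correlated with *C4-2* at r = 0.83 (rho = 0.72, adjusted permutation p = 0.0093 and 0.0416) and with *Cfb* at r = 0.82 (rho = 0.83, adjusted permutation p = 0.00602 and 0.00994). *C4-1* with *C3* gave r = 0.70 (rho = 0.80, adjusted permutation p = 0.0499 and 0.0159), and *C4-2* with *Cfb* gave r = 0.70 (rho = 0.66, adjusted permutation p = 0.0331 and 0.0795). For the 2 C4 probes the relation rests in part on rats 2 and 4, without which r was 0.50. Without the same rats r was 0.77 for *C4-1* with *Cfb*, 0.61 for *C4-1* with *C3* and 0.57 for *C4-2* with *Cfb*. With slide means subtracted, these 4 pairs gave r = 0.85, 0.88, 0.73 and 0.72.

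Of 28 pairs, 7 had a significant r, and 6 of these also had a significant rho. The share among pairs of other probes was not computed, so this count cannot be called particular to complement genes. Among 6095 genes searched, *Gpr149* had r = 0.92 with *C1qa*, and *Tgm2* had r = 0.90 with *C4-1*. *C3* with *Cfb* missed the threshold for r (0.66, adjusted permutation p = 0.0581) and passed it for rho (0.75, adjusted permutation p = 0.0323). Between a C1q gene and any other member r was -0.17 to 0.55, and no such pair was significant. *C2* had its highest r with *C4-1* (0.56, rho = 0.43, adjusted permutation p = 0.159 and 0.366).

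**Figure D3:**
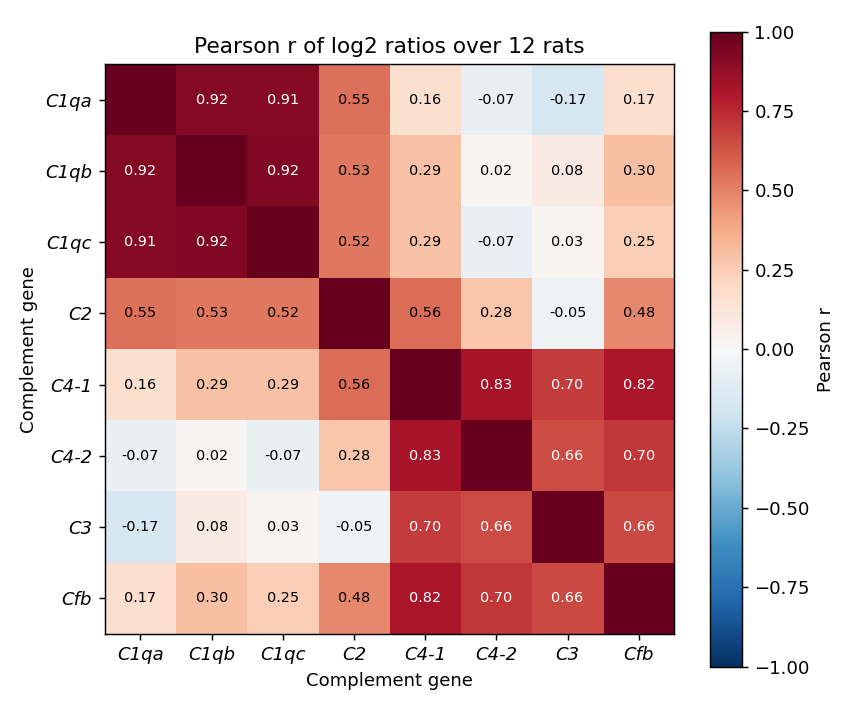
Pearson r of the log2 ratios of each pair of complement genes over 12 rats, with rows and columns for the 8 genes and color for r. The 3 C1q genes form a block with r of 0.91 to 0.92, and the C4 probes, *C3* and *Cfb* form another with r of 0.66 to 0.83.

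The 250 bases before the starts of *C1qa* and *C1qb* are shown as RefSeq gives them for build GRCr8, both on the minus strand. Their part in the ratios was not tested. Capitals mark matches on either strand to the PU.1 core GAGGAA, the STAT site core TTCNNNGAA or the interferon response core GAAANNGAA.
C1qa promoter: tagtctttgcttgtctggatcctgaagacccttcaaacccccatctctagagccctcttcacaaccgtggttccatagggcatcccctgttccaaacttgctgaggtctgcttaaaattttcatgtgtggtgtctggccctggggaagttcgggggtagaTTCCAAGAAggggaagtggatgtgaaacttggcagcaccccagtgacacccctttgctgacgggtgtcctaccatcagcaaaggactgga
C1qb promoter: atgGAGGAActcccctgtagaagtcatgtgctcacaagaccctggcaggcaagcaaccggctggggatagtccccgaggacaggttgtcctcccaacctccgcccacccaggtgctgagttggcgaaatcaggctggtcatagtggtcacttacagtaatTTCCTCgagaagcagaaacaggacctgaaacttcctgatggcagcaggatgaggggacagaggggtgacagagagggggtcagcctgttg
*C1qa* has 1 match to the STAT core, and *C1qb* has 2 to the PU.1 core. Among 33469 promoters of this length, 7.67% hold the STAT core, 23.3% the PU.1 core and 8.12% the interferon response core, which is in neither of the sequences shown. The matches shown do not overlap. A match is a description of these letters and no evidence of binding.

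As a description, the genes outside the list whose ratios followed a member most closely over 12 rats were looked up among 6095 genes measured in both channels. They are the 5 highest values of a long search and share arrays with the member. For *C2* they were *Tnfsf13*, *Csf1r*, *Pstpip1*, *RT1-DOb* and *Gpsm3*, with r of 0.92 to 0.94, and all 5 had negative mean ratios. *Csf1r* encodes the receptor for the macrophage growth factor CSF1. For the C1q genes *Gpr149* was among the 5 each time (r = 0.85 to 0.92), with a mean ratio of -0.01.

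For *C4-1* the closest gene was *Aebp1* (r = 0.90), and *Tgm2* and *Fgf23* were among the 5 for both C4 probes, with mean ratios of -0.41 and -0.16, opposite in sign to those of the C4 probes. For *C4-2* it was *Col14a1* (r = 0.81), a collagen gene. For *C3* it was *Vwf* (r = 0.87), and for *Cfb* it was *Emilin1* (r = 0.92). *Vwf* encodes von Willebrand factor of endothelium and platelets, and *Emilin1* a protein of elastic fibers.

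The C4 probes, *Cfb* and *C2* are listed in the MHC, at places 49 (*C4-2*), 63 (*C4-1*), 68 (*Cfb*) and 69 (*C2*) of the study's gene order. The stretch from 49 to 72 also holds 33 probes for 19 other genes, of which 4 probes were higher, 11 lower and 18 not significant. Over all probes 8.78% were higher and 8.48% lower. By gene, 4 of 19 had a probe that was higher and 4 a probe that was lower. *Notch4*, next to *C4-2*, was higher by 0.42 ± 0.10 (limma, adjusted p = 0.0114), and *Gpsm3*, the gene after it, was lower by 0.61 ± 0.11 on the log2 scale (adjusted p = 0.00199). *Rdbp*, next to *Cfb*, was at 0.18 ± 0.05 (adjusted p = 0.0244), and 1 of 2 probes of *Slc44a4* was at 0.31 ± 0.07 (adjusted p = 0.0087).

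The remaining calls in this stretch were small. All 6 *Rnf5* probes were lower (-0.24 to -0.07), as were *Pbx2* (-0.14) and 3 of 5 probes of *Ng5*, and 1 of 5 probes of *Ng3* was higher (0.09). Significant probes of both directions lay in this stretch, and *Cfb* and *C2*, which follow each other, had means of opposite sign.

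**Figure D4:**
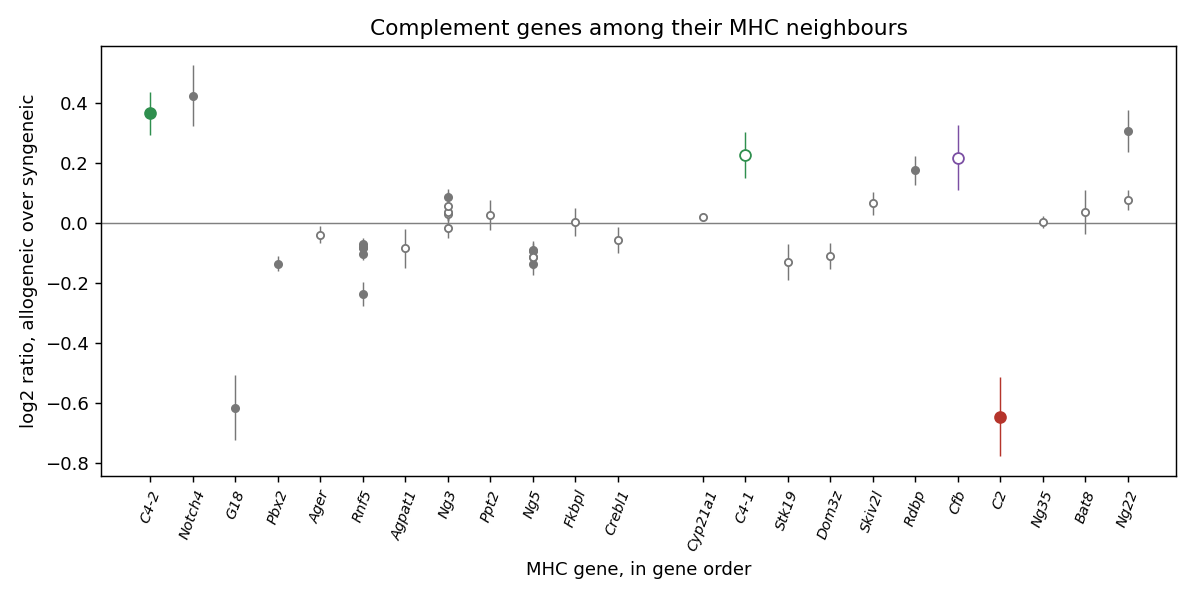
Log2 ratio of allogeneic over syngeneic explants with its standard error (y axis) for each probe of the MHC genes at places 49 to 72, in gene order (x axis). Complement genes are colored, other genes are gray, and filled points are significant. *C2* and *Gpsm3* lie near -0.6, while *C4-2* and *Notch4* lie near 0.4.

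The rest of the complement system was read from lists of its parts. For the counts below, the shares over all probes were 17.3% significant, 8.78% higher and 8.48% lower. In the early classical and lectin pathway, 3 of 6 probes outside the members were higher and none lower. *C1s*, the protease that cleaves C4 and C2, was higher in 12 of 12 rats, at 0.06 in the lowest, 0.55 at the median and 1.91 in the highest. Its mean was 0.64 ± 0.14, or 1.55-fold (limma, adjusted p = 0.00897, n = 12). Both probes of *Masp2*, a protease of the lectin pathway, were higher, by 0.25 (adjusted p = 0.0106) and 0.16 (adjusted p = 0.0177).

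In the alternative pathway *Cfd*, the protease that cleaves factor B, had a mean of -0.40 (limma, adjusted p = 0.0648, n = 12). Of 7 probes for the terminal components, 1 was lower and 6 were not significant. That one was *C6*, a part of the membrane attack complex, which was below 0 in all 12 rats, from -2.03 to -0.10 with a median of -0.91. Its mean was -0.99 (limma, adjusted p = 0.00405, n = 12). By the dye labels this is 1.99-fold less signal, and 1.99-fold more with the sign turned.

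Among regulators, 2 of 9 probes were higher and none lower. *Cfi*, the protease that inactivates C3b and C4b, was higher by 0.66, or 1.58-fold, in 11 of 12 rats (limma, adjusted p = 0.0104). *Clu*, encoding clusterin, which binds terminal complexes, was higher by 0.48 in all 12 (adjusted p = 0.000868).

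Of 10 receptor probes, 4 were lower and 2 higher. *Itgb2*, *Itgam* and *Itgax*, which encode the integrin chains of complement receptors 3 and 4, were lower in all 12 rats. Their means were -1.11 (limma, adjusted p = 0.000352), -0.60 (adjusted p = 0.00234) and -0.57 (adjusted p = 0.00388). The C5a receptor gene, *C5r1* in the files, was lower by 0.90 on the log2 scale in 11 of 12 rats (adjusted p = 0.00261), whereas *C3ar1*, the C3a receptor gene, was at -0.02 (adjusted p = 0.795). *C1qr1* (*Cd93*) was higher by 0.43 (adjusted p = 0.0497), as was 1 of 2 probes of *C1qbp* by 0.14 (adjusted p = 0.0488).

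**Figure D5:**
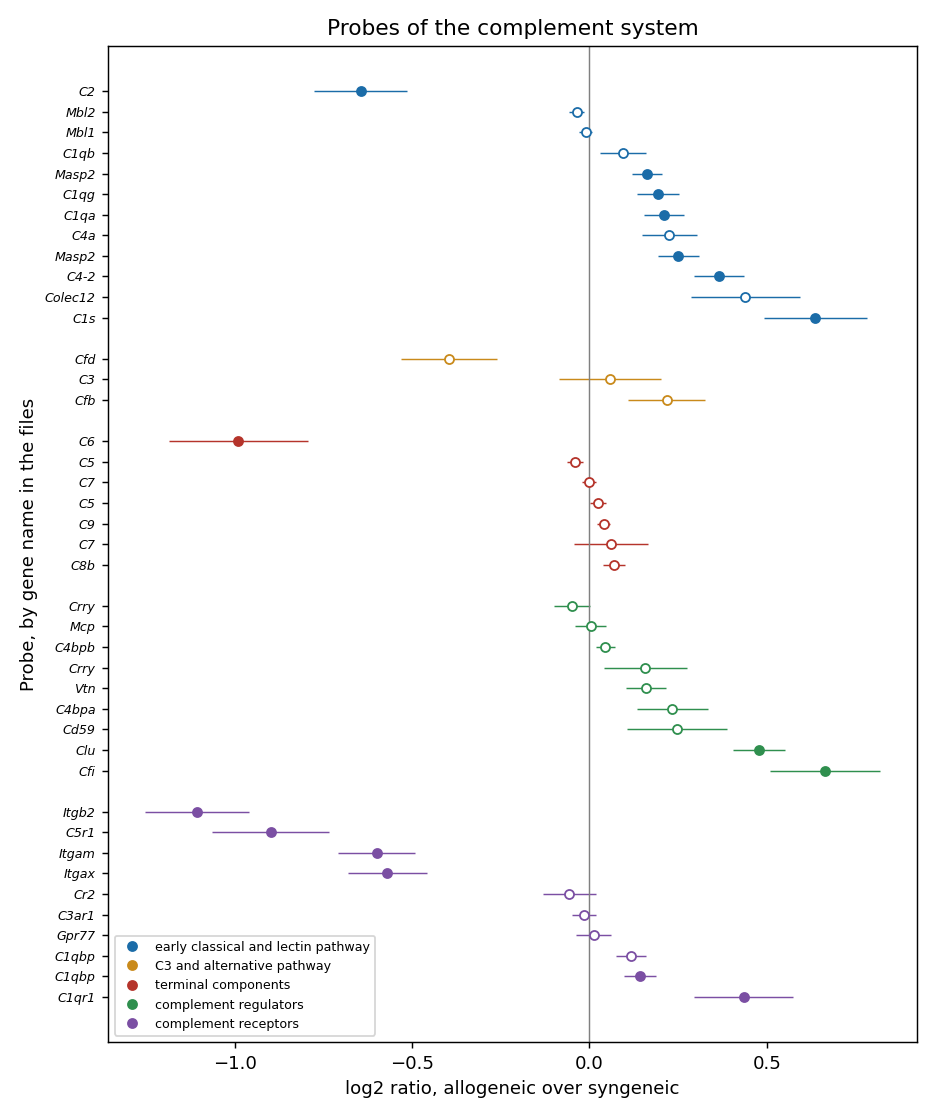
Mean log2 ratio of allogeneic over syngeneic explants over 12 rats with its standard error (x axis) for every probe of the 5 complement lists (y axis, names as in the files). Filled points are significant. *Itgb2*, *C6*, *C5r1* and *C2* lie farthest to the left, and *Cfi* and *C1s* farthest to the right.

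Marker genes of other cells moved with the same comparison. Lower and higher are again by the dye labels, and the study lists *Fcgr3a* and *Trem2* with the opposite sign and a larger size. Of 12 macrophage probes 7 were lower and none higher, with *Fcgr3a* at -2.19 and *Trem2* at -1.69, while *Cd163* was at 0.18 and *Cd14* at 0.01, neither significant. The log2 of the summed probe intensities of this list was 14.10 to 15.42 in the allogeneic and 14.96 to 16.47 in the syngeneic samples. Sums below are likewise the log2 of summed intensities, in which the brightest probes weigh most. Of T cell probes 5 of 13 were lower, with sums of 11.82 to 12.99 and 12.03 to 13.30, and of NK cell probes 5 of 9 were lower, with sums of 10.28 to 11.19 and 10.62 to 12.71. *Cd28* was well above background on only 2 arrays. In the fibroblast list 3 of 5 probes were higher (sums 13.02 to 15.31 and 12.47 to 14.72), in the endothelial list 3 of 7 (12.20 to 14.43 and 12.02 to 14.00) and in the keratinocyte list 1 of 2 (16.26 to 17.24 and 14.55 to 16.80). None of 5 B cell and 6 mast cell probes was significant (sums 9.07 to 11.12 and 9.13 to 11.29 for B cells, 9.87 to 11.81 and 9.94 to 11.55 for mast cells).

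Among 24 probes for IFN-γ inducible genes, 8 were lower, 1 was higher and the median was -0.14, against 0.36 for *C4-2* and -0.64 for *C2*. By the dye labels *Ubd* was lowest at -1.43, and *Cxcl9* was the higher one at 0.34. The part of macrophages, lymphocytes, fibroblasts or IFN-γ in the complement values was not tested.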

How the data were processed

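RNA of 24 skin explants of 12 rats was compared on 24 arrays, 2 per rat with exchanged dyes. The authors deposited the scanner output, from which the mean intensities and median background intensities of the spots in Cy3 and Cy5 were used; per the file headers these are not normalized. The authors also deposited a table of log2 ratios for which the sources used here give no background treatment. The sample titles read Stimulated vs. NonStimulated for both arrays of a rat and do not name the lymphocytes. The columns of this table correlated at 0.707 to 0.955 with the processed log ratios turned by the dye labels. They had medians of -0.027 to 0.022 and were read as already turned to allogeneic over syngeneic.

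With R 4.3.3 and limma 3.58.1, intensities were corrected by normexp (offset 50) and normalized by loess within arrays. Control spots had weight 0, spots marked as outliers were left out and saturated spots were kept. Ratios were turned by the dye labels and averaged over spots and over the 2 arrays of a rat, which hold the same RNA, and limma tested 12 rats against 0 over 8453 probes. Intensities per sample were scaled by Aquantile. Members were compared by exact permutation of signs, and correlations by 100000 permutations, with scipy. The fits were tested on simulated data. Promoters came from RefSeq (GRCr8), which held 5 of the 8 members.

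Alternatives concerned background, normalization, dye orientation, dim probes (kept if above background on 12 or more arrays), outlier spots, slide, test, the deposited log2 table, the sign of rat 5 and leaving out each rat. Genes were named as members, as list genes that were significant or central to complement, as MHC neighbors at places 49 to 72, or as the 5 closest genes by r. *Trp63*, *Cd163*, *Cd14*, *Cd28* and *Cfd* were named after their values were seen. Members and lists were chosen with earlier results of these data known. No column was left unused, and the replicates are 12 separate rats.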

Additional observations from a re-analysis of the deposited data

How the results depend on the processing

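*C2* and *C4-2* kept their direction and their call under 11 of 12 settings each and whenever a rat was left out (*C2* -0.71 to -0.56, *C4-2* 0.31 to 0.40). Both lost the call when the sign of rat 5 was turned, as a trial of a wrong label (*C2* -0.49, *C4-2* 0.33, *C1qa* 0.20, *C1qc* 0.18), and limma then called 0 members and 0 probes, with 5 members and 1844 probes at an unadjusted p under 0.05. With its own sign rat 5 correlated at 0.83 with the other rats. *C1qa* also lost its call with median centring in place of loess (0.18), and without rat 1 or rat 2 (range over the rats 0.18 to 0.24, adjusted p 0.0085 to 0.0516). *C1qc* lost its call with the processed signals (0.19), median centring (0.17), Cy5 arrays only (0.14) and the slide as a block (0.19). It also lost it with an ordinary F-test of the rat means in place of limma (0.19), the exact signed-rank test (0.19) and the deposited log2 table (0.20). The same held without any of 9 rats (0.16 to 0.20 in these, range over all 12 rats left out 0.16 to 0.23). *C4-1* gained a call with median centring (0.26), on the Cy3 arrays only (0.42), and without rat 2 (0.26) or rat 8 (0.25), with a range over all 12 rats left out of 0.17 to 0.26. *C3* turned to -0.0096 on the Cy5 arrays and to -0.049 without rat 9 (range -0.049 to 0.13). *C1qb* and *Cfb* passed the threshold in no setting.

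The number of members called was 3 to 5 in the settings other than the turned sign of rat 5 and 2 to 5 without a rat, with 2 without rat 1. The number of probes called was 2659 on the Cy5 arrays and 2500 on the Cy3 arrays against 1459 for both, and 1155 to 2087 without a rat. The number of differing pairs was 9 with processed signals and 10 to 12 without a rat. Differences between members that were near 0 and not significant changed sign when single rats were left out: *C1qa* minus *C4-1* ranged from -0.066 to 0.037, *C1qa* minus *Cfb* from -0.081 to 0.047, *C1qb* minus *C3* from -0.044 to 0.16, *C1qc* minus *C4-1* from -0.075 to 0.022, *C1qc* minus *Cfb* from -0.094 to 0.032 and *C4-1* minus *Cfb* from -0.026 to 0.038. The cause of these shifts was not tested. Each ratio compares the 2 explants of a rat, so every test here is paired by rat.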
